A study of Homo sapiens with 30 samples.

Results

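The regions described here are 217 stretches of nuclear DNA that the final lists of the ND5.3 and ND6 editors hold with the same chromosome, start and end, and that no region of the ND5.1 list overlaps by 1 bp or more. They were selected on list membership alone, so their presence in ND5.3 and ND6 and their absence from ND5.1 are the rule and not a result. They are 217 of the 1139 distinct regions of the series, 30.3% of the 716 regions of the ND6 list and 35.5% of the 611 regions of the ND5.3 list. The regions set beside them are the 280 of the ND6 list that the ND5.1 list also holds. All 280 have the same ends in both lists, the smallest overlap being a whole region of 6 bp, and 272 of them are in the ND5.3 list too.

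The libraries were made by Detect-seq from HEK293T, a transformed human embryonic kidney line, in which DdCBEs aimed at mitochondrial DNA had been expressed. By the titles, the ND5.3 libraries are 2 pulldowns of the orientation L1397C. The titles of the ND6 and ND5.1 libraries name no orientation. Both sets are grouped here as L1397N, each with 1 input library and 2 plain pulldowns. Each also has 2 pulldowns named Lipo2000, 1 pulldown of an editor with dead DddA, and 1 pulldown for either TALE array left off, with MTS in the title. By the same grouping, the ND4 libraries have pulldowns of both orientations, 2 of each. Beside these are 1 input, 2 named Lipo2000, 1 with dead DddA and 1 for either array left off. Which of the ND4 libraries the ND4 list pools is not given in the sources used here. Target and orientation therefore cannot be told apart wherever ND5.3 is set beside ND6 or ND5.1, and the ND4 list may mix orientations. The 4 lists give no value per library, so no spread between replicates could be measured, and the depth of the libraries is unknown. The intervals given below are 95% intervals over regions and cover counting error only.

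A DdCBE is a base editor without a guide RNA: a bacterial deaminase that acts on double-stranded DNA, DddA, is split into inactive parts, each fused to a TALE array, and the parts come together where the arrays bind side by side. DddA turns cytosine into uracil and is known to prefer cytosines that follow a thymine. Detect-seq tags the deoxyuridine left in DNA and pulls down the fragments that hold it, so a region in these lists is a place where deaminated cytosines were read in the nuclear genome. The names ND4, ND5.1, ND5.3 and ND6 refer to sites in mitochondrial genes for subunits of respiratory complex I.

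The sequence of whole regions could be read for 15 of the 217 members and 17 of the 280 regions shared with ND5.1, those that lie inside a promoter window of RefSeq on GRCh38.p14 (250 bases before to 50 after a start site). The members below are shown because they carry the pattern found at the region ends. They include the members near gene ends that rank highest by signal among those with sequence, and TIMM10, FANCE and OXCT1, which were chosen after their sequences and values were seen. Each is written 5′ to 3′ on the strand that the ND6 list gives, which is plus for COMMD4, ORC4, COX7A2, FANCE and OXCT1 and minus for the others. Positions follow beside the values. Capitals mark the listed region, and lower case the bases beside it, up to 20 on either side.
SLC9A4: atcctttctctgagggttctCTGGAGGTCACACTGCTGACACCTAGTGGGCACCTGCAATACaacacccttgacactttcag
ZFYVE27: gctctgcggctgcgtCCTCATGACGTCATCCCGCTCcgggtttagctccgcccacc
COMMD4: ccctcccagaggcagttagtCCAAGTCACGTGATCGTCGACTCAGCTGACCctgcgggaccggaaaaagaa
PRR3: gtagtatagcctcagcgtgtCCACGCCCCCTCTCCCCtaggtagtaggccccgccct
ORC4: gtctccgtCCACGCCCACTTCCgttcctcc
SELENOK: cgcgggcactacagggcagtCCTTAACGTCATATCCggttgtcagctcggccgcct
COX7A2: cggctctatCCGCTCTAGCCggctcgccg
COA1: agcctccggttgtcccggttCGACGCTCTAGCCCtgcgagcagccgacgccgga
TIMM10: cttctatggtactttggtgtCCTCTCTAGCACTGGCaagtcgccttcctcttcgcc
FANCE: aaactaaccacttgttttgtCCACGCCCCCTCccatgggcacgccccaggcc
OXCT1: ttctcatCCCTACCGCACCCCCtagtgga

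Every one of these regions opens with a C that follows a T, and closes with a C. Over all members with sequence, the first base was C in 15 of 15, the last base was C in 15 of 15, and the base before the first C was T in 15 of 15 (100%, 79.6 to 100). The base before the last C was T in only 3 of 15 (20.0%, 7.05 to 45.2). Of the C inside the regions, away from the ends, 21 of 94 followed a T (22.3%, 15.1 to 31.8), against 20.8% of all C on both strands of the promoter windows. The T before the first base thus stood out from the inner cytosines, while the inner and last cytosines lay near the promoter background. How the authors set the ends of a region is not given in the sources used here, and whether that fixes a TC at the 5′ end was not tested.

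The regions shared with ND5.1 had the same bases at their ends. Among them the first base was C and followed a T in 17 of 17, the last was C in 17 of 17 and followed a T in 3 of 17 (17.6%, 6.19 to 41.0), and 23 of 113 inner C followed a T (20.4%). The strongest by ND6 signal among those with sequence are shown for comparison, with capitals again marking the region. They lie beside SLC30A5, a zinc transporter (chr5:69093805-69093830, minus strand, signal 60.7), ZSCAN25, a zinc finger gene (chr7:99616886-99616907, minus strand, 41.6), and LOC124904953 (chr20:63381995-63382017, plus strand, 32.1).
SLC30A5: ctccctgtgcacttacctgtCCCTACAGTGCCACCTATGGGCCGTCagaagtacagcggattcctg
ZSCAN25: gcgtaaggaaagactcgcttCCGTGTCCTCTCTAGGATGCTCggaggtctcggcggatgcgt
LOC124904953: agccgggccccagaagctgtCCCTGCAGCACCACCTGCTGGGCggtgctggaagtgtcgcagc

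The same coordinates also settled how the lists count. Taken as 1-based, the base at the start coordinate was C on the listed strand in all 32 members and shared regions with sequence, whereas with starts taken as 0-based it was C in 19 of 32 (59.4%). Positions are therefore printed as 1-based on hg38, and widths count both ends.

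Beyond the TC itself, a further C came next in 12 of 15 members (80.0%, 54.8 to 93.0) and in 11 of the 16 shared regions whose neighbouring bases could be read (68.8%, 44.4 to 85.8). In all promoter windows, 36.3% of TC were followed by C. The word GTCC, with its C-C at the start of the region, was found in 8 of 15 members (53.3%, 30.1 to 75.2) and in 9 of 16 shared regions (56.3%, 33.2 to 76.9), and 6.73% of all TC in promoter windows lie within it. ZFYVE27, COMMD4, PRR3, ORC4, SELENOK, TIMM10 and FANCE, printed above, all show it. The intervals of members and shared regions overlap for both words. These words were counted after the sequences had been read, and are a description.

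Some longer words recurred among the members. CCACGCC was in the region or the 20 bases beside it, on either strand, in 3 of 15 members (ORC4, PRR3 and FANCE) and in 0 of 17 shared regions. It is in the middle 56 bases of 1.98% of all promoter windows. In all 3 it opens at the first base of the region, as the printed sequences show. CTCTAGC was found in 3 of 15 members (COX7A2, COA1 and TIMM10) and in 1 of 17 shared regions (SNHG20), against 0.592% of promoter windows. The shared region of ZSCAN25, printed above, holds CTCTAGG, which differs from it at the last base only. TGACGTC, a word of cAMP response elements, was in 1 of 15 members (ZFYVE27), 2 of 17 shared regions (MLF1 and ZNF330) and 0.678% of windows. All 3 words were picked by reading these sequences, so their counts support nothing beyond the description.

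The core of the CTCF motif, searched by name on both strands, was in 0 of the 14 members with 50 bases on either side (0%, 0 to 21.5). It was in 4 of the 12 shared regions with such flanks (33.3%, 13.8 to 60.9), those at LOC124900823, LOC124903549, DMKN and RUFY4. The middle 116 bases of promoter windows hold it in 0.248%. Both intervals overlap, which does not show that the shares are alike, and no interval of their difference was taken. A strict match misses weaker forms of the motif. Near matches to the core can be read on the opposite strand of sequences printed above. They lie in the members at SLC9A4 and OXCT1 and in the shared region at LOC124904953. Near matches were not counted in either group, so whether members lack CTCF sites was not tested. The median GC content of the regions with sequence was 71.4% in members, from 43.8% at SELENOK to 90.0% at CPNE4, and 65.2% in shared regions, beside a median of 58.7% over promoter windows. The regions are short and all open and close with C, which adds to their GC content. With 50 bases on either side, where the window held them, the medians were 62.9% in members and 63.1% in shared regions.

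Every region of the ND6 list has a signal value, a score that the authors deposited without saying how it was normalized. Since being listed may itself rest on signal, levels are given as a description, with no test. The members were of middle rank. Their median ND6 signal was 8.63 (8.19 to 9.33), with quartiles of 6.73 and 11.3 and a range of 3.82 to 40.4. The regions shared with ND5.1 had a median of 17.7 (16.2 to 19.5), quartiles of 11.5 and 28.3, and a range of 5.17 to 116.4. The median of the shared regions was 2.05-fold that of the members, a log2 difference (members minus shared) of -1.04 (-1.20 to -0.88). The 99 ND6 regions of the same class, IND, that neither other list holds had a median of 6.37, and the members stood 1.35-fold above them (log2 difference 0.44, 0.30 to 0.57).

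**Figure D1:**
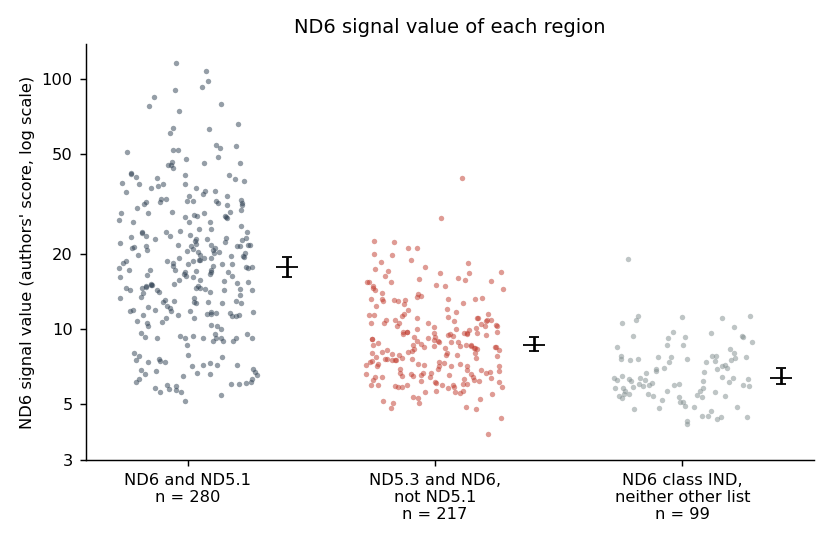
ND6 signal value (the authors' score, log scale) of each region, one point a region, with the median and its 95% interval beside each group. The 217 members, with a median of 8.63, lie between the 280 regions shared with ND5.1, at 17.7, and the 99 class IND regions that neither other list holds, at 6.37.

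The groups overlapped at the low end and parted at the high end. Only 11 of 217 members exceeded the median of the shared regions, while 40 of 280 shared regions lay below the median of the members. There were 32 shared regions above the highest member and 7 members below the lowest shared region. The median rank of a member in the ND6 list was 396, the best being 33 and the worst 711, against a median of 155 for shared regions. No member was among the first 10 ranks, 1 was among the first 50 and 2 among the first 100.

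Split into 5 groups of 143 or 144 regions by signal, the ND6 list changed its make-up step by step. The highest group held 9 members of 143 regions (6.29%) and 131 shared regions (91.6%). The next held 46 members (32.2%), and the middle one 74 of 144 (51.4%), where members outnumbered every other kind. The last groups held 54 and 34 members of 143 (37.8% and 23.8%), while shared regions fell to 24 and 14. In the first of these groups, members again outnumbered every other kind. In the lowest group the most frequent were the classes DL and DR, with 52 regions (36.4%).

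**Figure D2:**
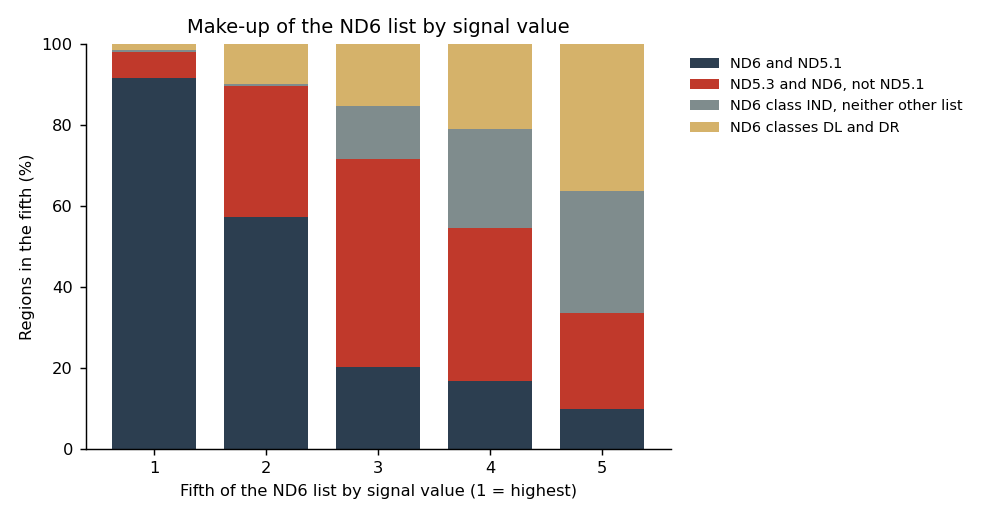
Make-up of the ND6 list in 5 equal groups by signal value, with the highest on the left, in percent of the regions of each group. The share of members rises from 6.29% in the highest group to 51.4% in the middle one, while that of regions shared with ND5.1 drops from 91.6% to 9.79% across the list.

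The strongest member lay at chr2:11418146-11418167, on the minus strand inside the non-coding gene LOC105373429 and 26208 bp from E2F6, a transcriptional repressor of the E2F family. Its signal was 40.4, at rank 33. The second lay in LYPLAL1, a gene of the lysophospholipase-like family, at chr1:219416797-219416815, with a signal of 27.9 at rank 75. Both stood clear of the third, at 22.5, which lay between genes at chr12:27940971-27940988, 17096 bp from PTHLH, the gene of parathyroid hormone-like hormone. From there the values ran down closely to the twelfth.

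The fourth to eleventh members by signal mostly lay outside protein-coding genes. A region at chr7:15721070-15721094 lay in LOC101927558, 34387 bp from the homeobox gene MEOX2, with a signal of 22.4. On X, regions at 21.1 and 20.0 lay 16085 bp from PTCHD1 and 9204 bp from MTMR1, a phosphoinositide phosphatase, and one at 18.6 lay 130490 bp from RADX. A region in the T cell receptor beta locus, TRB, had 21.1. On chromosome 1, the region 61081 bp from CHRM3, a muscarinic acetylcholine receptor, had 19.8, and one 466403 bp from PTPRU, a receptor tyrosine phosphatase, had 18.9. EML5, a microtubule-associated protein gene, held the region of 18.5 at chr14:88667632-88667653. The twelfth was that of SLC9A4, a sodium/proton exchanger, at chr2:102473097-102473138, with a signal of 17.7 at rank 155 and the longest region (42 bp) of those printed above. Of these 12, only the regions of LYPLAL1 and EML5 lay inside a protein-coding gene, and only that of SLC9A4 lay within 1 kb of the end of one.

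The weakest member, at 3.82 and rank 711, lay in CD36, a fatty acid receptor of the cell surface, at chr7:80659649-80659698. Next came a region 148720 bp from ERCC6L2 (4.39), one in MSRA, a methionine sulfoxide reductase (4.80), and the one printed above beside COA1, an assembly factor of cytochrome c oxidase (4.83, rank 682). The last were 17932 bp from USP26 (4.89) and 1245 bp from MAGEL2 (5.08), the latter tied with a region 29028 bp from TNFSF14 and taken by coordinate. As among the strongest members, regions inside genes and between them were both present.

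The median width of the members was 16 bp (15 to 17), with quartiles of 14 and 22 and a range of 8 to 64. That is also the median of all ND6 regions and of the class IND regions in neither other list (difference 0 bp, -1.75 to 1.75). Shared regions had a median of 19 bp (18 to 22) and a range of 6 to 67, so members were 3 bp narrower at the median (difference -3 bp, -5.21 to -0.79). Width and signal were linked in both groups: Spearman's rho was 0.294 over the 217 members and 0.310 over the 280 shared regions, which come from 1 pooled list and are not independent samples. The 72 narrowest members (8 to 14 bp) had a median signal of 7.88, and the 73 widest (19 to 64 bp) 9.70. Below the median signal of the ND6 list the median widths were 15 bp in both groups (difference 0 bp, -2.20 to 2.20), and above it 18 against 20 bp (difference -2 bp, -5.09 to 1.09). On either side of that median, the interval of the difference in width thus held 0.

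Strand was evenly divided. The list placed 115 of 217 members on the plus strand (53.0%, 46.4 to 59.5), against 153 of 280 shared regions (54.6%) and 52.7% of all ND6 regions. The difference was -1.65 percentage points (-10.4 to 7.12). Set against the gene that holds them, where the promoter table gives its strand, 35 of 74 members lay on the strand of the gene (47.3%, 36.3 to 58.5), and 64 of 114 shared regions did (56.1%). Median signal was 8.44 on the plus strand and 9.04 on the minus strand of the members, with overlapping intervals (7.80 to 9.20 and 8.27 to 10.3).

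Members were inside genes about as often as other regions, but less often inside protein-coding ones. Of the 217, 118 lay in a gene of any kind (54.4%, 47.7 to 60.9), against 159 of 280 shared regions (56.8%, difference -2.41 points, -11.1 to 6.34) and 57.5% of the ND6 list. In protein-coding genes lay 83 members (38.2%, 32.0 to 44.9), against 132 shared regions (47.1%, 41.4 to 53.0) and 44.8% of the ND6 list. The difference was -8.89 points (-17.4 to -0.12), an interval that only just leaves out 0. It was -14.3 points among regions above the median ND6 signal (-24.9 to -2.51) and -9.50 among those below it (-25.0 to 6.58).

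Members lay in genes of long non-coding RNAs (lncRNAs) more often than shared regions did. A lncRNA gene with no protein-coding gene held 31 members (14.3%) and 17 shared regions (6.07%), a difference of 8.21 points (2.91 to 13.9), with 10.3% over the whole ND6 list. This kind of host gene was looked at after its counts were seen. Against all ND6 regions in neither other list, the difference was 2.41 points (-3.98 to 8.83). A further 99 members and 121 shared regions lay in no gene. Median signal of the members hardly varied with the setting: 8.44 in protein-coding genes, 8.63 in non-coding genes or pseudogenes alone and 8.95 between genes, with overlapping intervals.

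**Figure D3:**
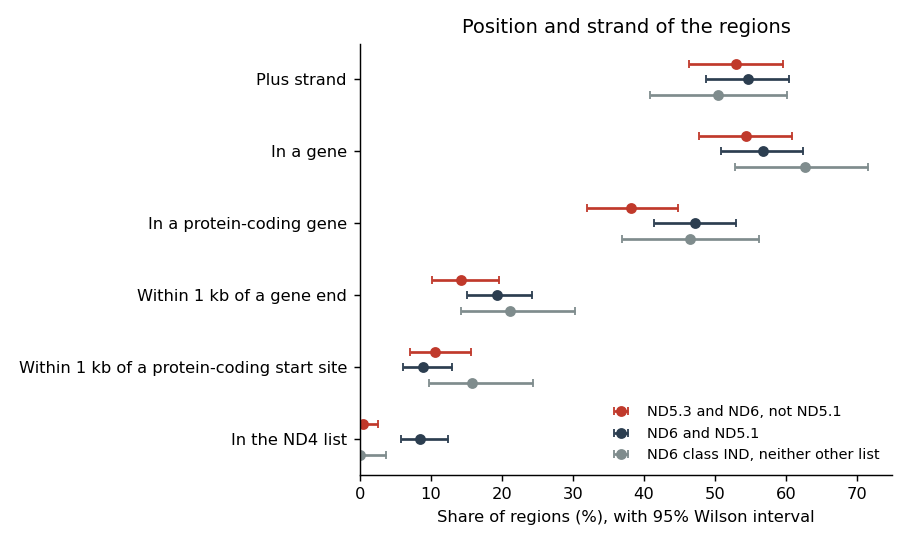
Share of regions (percent, with 95% Wilson intervals) on the plus strand, in genes, near gene ends and start sites, and in the ND4 list, for members, regions shared with ND5.1, and class IND regions in neither other list. The clearest gap is in the ND4 list, at 0.461% of members and 8.57% of shared regions, and the intervals of most other shares overlap.

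Ends of genes, meaning either bound of any gene, were within 1 kb of 31 members (14.3%, 10.3 to 19.6) and 54 shared regions (19.3%, 15.1 to 24.3), and of 18.7% of the ND6 list. The difference was -5.00 points (-11.4 to 1.74), and -8.87 (-15.9 to -0.08) among regions above the median ND6 signal. For protein-coding genes alone the counts were 23 (10.6%) and 34 (12.1%), a difference of -1.54 points (-7.08 to 4.30).

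Start sites could be placed for 206 members and 268 shared regions, on the chromosomes that the promoter table covers. Within 1 kb of a protein-coding start site lay 22 members (10.7%, 7.16 to 15.6) and 24 shared regions (8.96%, 6.09 to 13.0), against 11.8% of ND6 regions placed this way. The difference was 1.72 points (-3.62 to 7.45), and it was below 0 both above the median ND6 signal (-1.29) and below it (-3.12), again with intervals that hold 0. Of the 22 members, 18 were centred upstream of the start site (81.8%, 61.5 to 92.7) and 14 lay within 200 bp upstream of it. Of the 24 shared regions, 16 were upstream (66.7%, 46.7 to 82.0) and 10 within 200 bp. Upstream is counted from the nearest listed start site in both groups, and such a region can still lie inside a gene. The members at CPNE4, ORC4, COX7A2 and OXCT1 were upstream in this sense but inside the bounds of those genes. The difference in the upstream share was 15.2 points (-10.3 to 37.9). Over all ND6 regions within 1 kb of such a site, 49 of 81 were upstream (60.5%, 49.6 to 70.4). Among class IND regions in neither other list, 9 of 15 were (60.0%, 35.7 to 80.2). The count within 200 bp was not taken over the whole ND6 list. The members near start sites had a median signal of 7.49 (6.14 to 8.88), beside 8.75 (8.19 to 9.57) for the 184 others, and shared regions near start sites had 12.1.

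**Figure D4:**
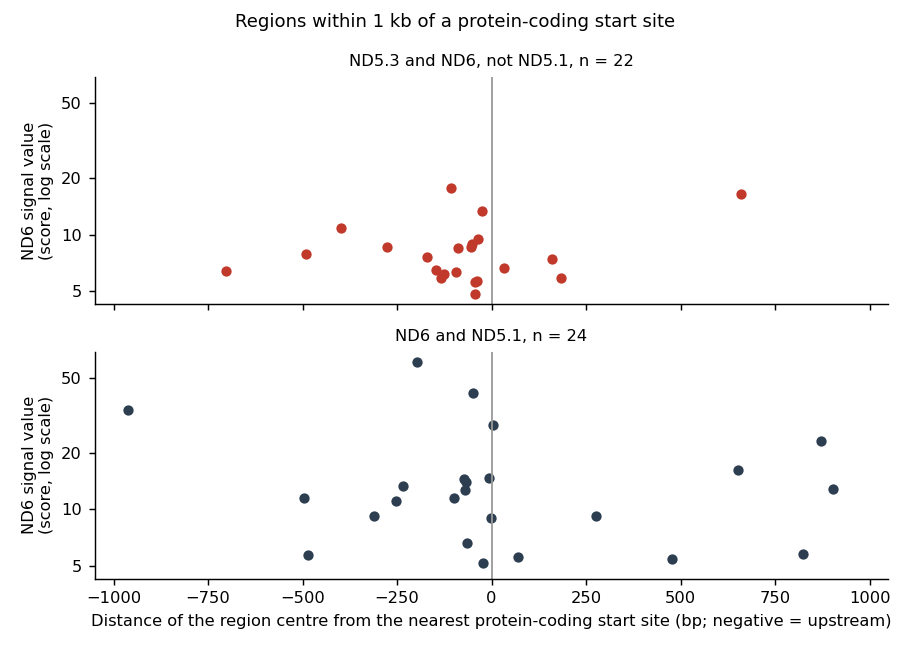
ND6 signal value (score, log scale) against the distance of the region centre from the nearest protein-coding start site, in bp with upstream negative, for the 22 members and 24 shared regions within 1 kb. Of the members, 14 of 22 lay within 200 bp upstream of the start site, beside 10 of 24 shared regions, and no member shown exceeds a signal of 17.7.

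By role, the members near the ends of protein-coding genes lay beside genes of many kinds. Near transporters and membrane traffic were SLC9A4 (17.7, centred 108.5 bp upstream of its start site), ZFYVE27, which codes for the endoplasmic reticulum protein protrudin (13.4, at chr10:97737092-97737112, 26 bp upstream), and GOLGA4, a golgin of the Golgi apparatus (7.16). COMMD4, of the COMM domain family, had a region at chr15:75336012-75336042 with a signal of 9.50, centred 36 bp upstream. The region of ZBTB8B (16.4), a zinc finger gene, lay inside the gene, 659 bp past its start site.

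Genes that act on RNA or DNA were also among the neighbours. SNRPE, a core protein of spliceosomal snRNPs, had a region with a signal of 10.8, 146 bp from the bound of the gene, and the helicase gene DHX33 one of 11.1 at the same distance, in its divergent transcript. The region at chr6:30556647-30556663 (8.63) was centred 54 bp upstream of PRR3 and within 1 kb of start sites on both strands. So was the region at chr2:148020818-148020831 (8.52), 87.5 bp upstream of the listed start site of ORC4, a subunit of the origin recognition complex, and 96 bp from a bound of MBD5. ORC4 also holds that region by its bounds, since a gene can reach past the 1 start site listed. FANCE, of the Fanconi anaemia core complex, had a region of 5.86 at chr6:35452199-35452210, 133.5 bp upstream, and was named after its value was seen.

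SELENOK and SECISBP2 both belong to selenium biology: the first codes for a selenoprotein of the endoplasmic reticulum, and the second for a protein that binds the RNA element needed to insert selenocysteine. Their regions had signals of 7.57 (chr3:53892021-53892036, 169.5 bp upstream) and 7.40 (chr9:89318999-89319025, 161 bp past the start site). The remaining members of this set lay at UNC5CL (8.55), TRAF4, an adaptor of receptor signalling (8.14), LPCAT3, a lysophospholipid acyltransferase (7.91), and ZSCAN26, a zinc finger gene (7.23). Further members near start sites were named after their values were seen. They lay at CPNE4, a copine (8.88), CSNK1G3, a casein kinase (6.59), ZSCAN30 (6.31), RBM34 (5.87) and ZNF620 (5.57). Another such member lay inside DCST1 (6.41), centred 703 bp upstream of the start site of ADAM15.

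Of the 6 gene lists, 4 had no gene hit by a member: 30 genes of mtDNA maintenance, 25 of uracil base excision repair, 20 of chromatin architecture and 25 of endosome and vesicle traffic. The last had 3 genes hit by shared regions, RAB5B, AAK1 and WASF1, and the others had 0. The whole ND6 list hit no further gene of these 4 lists. Of 75 nuclear genes for subunits of oxidative phosphorylation, members hit 1, COX7A2. It codes for a subunit of cytochrome c oxidase. Its region, printed above, lies at chr6:75243922-75243932, 126 bp upstream of the listed start site but inside the bounds of the gene, with a signal of 6.14 at rank 581. Of 63 cancer genes, members hit 1, shared regions 0 and the whole ND6 list 2 (KEAP1 and NF2). The gene hit by a member was KEAP1, the adaptor through which the transcription factor NRF2 is degraded. That region, at chr19:10492272-10492282 on the minus strand, lies inside the gene and 10494 bp past its start site, with a signal of 6.60 at rank 532. With so few hits, nothing about the members as a group can be read from these lists.

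Other mitochondrial proteins have members at their start sites, named here after their values were seen. These genes were picked by hand, and whether shared regions lie at such genes as often was not tested. COA1 has its region at chr7:43729561-43729574, 44.5 bp upstream, and TIMM10, a chaperone of the space between the mitochondrial membranes, at chr11:57530894-57530909, 147.5 bp upstream, with a signal of 6.49. OXCT1, an enzyme of ketone body use in mitochondria, has one at chr5:41843689-41843703, with a signal of 5.65. The OXCT1 region is centred 39 bp upstream of the listed start site but lies inside the bounds of the gene. All of these had signals below the median of the ND6 list, 9.33.

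The members lay in 84 distinct protein-coding genes, and GRAMD1B, which codes for a sterol transporter of the endoplasmic reticulum, was the only one to hold 2. Its regions are on opposite strands, 43641 bp apart, at chr11:123555078-123555099 (9.33, rank 358) and chr11:123511426-123511437 (8.41, rank 412). By chromosome, the members were spread over all autosomes and X. Chromosome 1 held 24 members and 37 shared regions, and chromosome 6 held 17 and 21. Chromosome 9 held 3 and 14, a difference of -3.62 points (-6.96 to -0.34) that was picked from 23 chromosomes and is not adjusted for that number.

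The ND4 list, which the rule did not use, held 1 of the 217 members (0.461%, 0.081 to 2.56) and 24 of the 280 shared regions (8.57%, 5.83 to 12.4), beside 3.49% of all ND6 regions. The difference was -8.11 points (-12.0 to -4.65). The only such member was the region in LYPLAL1, the second strongest. Of the 24 shared regions, all but 1 lay above the median ND6 signal, and below it 0 of 122 members and 1 of 51 shared regions were in ND4 (difference -1.96 points, -10.3 to 1.49). Above the median the shares were 1.05% and 10.0% (difference -8.99 points, -13.6 to -3.30), so the gap was as large there, and whether signal accounts for it within that range was not tested.

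All 217 members were of class IND, one of the classes that the authors' identifiers carry without a definition in the files, and so were all 280 shared regions. Of the 120 ND6 regions of classes DL and DR, none was in either group. Every ND6 region that overlapped an ND5.3 region had the same ends as an ND5.3 region. Joining by overlap of 1 bp or more therefore gave the same 217 members. Members were also not near misses of ND5.1 regions. The closest lay 1032 bp from an ND5.1 region, in HAS2-AS1 (signal 8.85), followed by one in DAB1 at 7596 bp (15.9) and one near CDH5 at 12916 bp (8.34), and only the first pair were within 10 kb. No member was nearer than 6950 bp to another ND6 region.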

How the data were processed

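The authors deposited 4 lists of regions, each pooled over the libraries of 1 editor target; which libraries, and how regions were called, is not stated in the labels or headers. The submitters' processing notes name hg38, Picard, SAMtools, Bowtie2 and cutadapt, without versions or roles. The ND6, ND5.1 and ND4 lists carry a strand, a class and a signal value, a score deposited by the authors with no stated normalization, per the file headers. The ND5.3 list carries positions alone, so signal was compared within the ND6 list only.

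The members, gene lists and measures were chosen with earlier results of these data known. Regions were joined on identical chromosome, start and end, and compared by overlap of at least 1 bp. Gene bounds (58419 genes, 19821 protein-coding) and promoter sequences (35116 windows of 27305 genes) came from RefSeq tables on GRCh38.p14. Exons and introns were not analysed here. The promoter table lacks some genes, and regions on 1 chromosome without windows were left out of start-site shares. Shares have 95% Wilson intervals, their differences Newcombe intervals, medians exact order-statistic intervals and differences of medians Price-Bonett intervals. The procedures were tested on simulated data. Python 3.11.15, pandas 2.3.3, numpy 2.4.6, scipy 1.17.1 and matplotlib 3.10.9 were used.

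Named regions were the 12 members of highest and 6 of lowest signal, those in ND4, up to 15 by signal within 1 kb of a protein-coding gene end, genes holding 2 or more members, members in listed genes, and the 3 nearest to an ND5.1 region. Others are said to be named afterwards. Alternatives were other comparison groups, regions above or below the median signal, other windows, merged neighbours and other readings of the coordinates. For 1 of the gene lists, the count of genes hit by shared regions is not reported here.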

Additional observations from a re-analysis of the deposited data

How the results depend on the processing

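No paired analysis was possible because each list is pooled over its libraries and holds no value per replicate, and no library could be left out for the same reason. Of the results recomputed under other settings, 87 values stayed within the interval of the reported value (for the count of members, within 1.5 times it) and 10 left it. Many of the 87 could not have moved. No member lay within 1 kb of an ND5.1 region, and no member or shared region lay within 1 kb of another ND6 region. All members and shared regions were of class IND. Leaving out such members, merging such neighbours or keeping class IND alone therefore repeated the reported values. The counts of members with a wider ND5.1 exclusion were fixed in the same way. Of all the recomputed values, 11 had the opposite sign: 3 for differences whose reported interval leaves out 0, and 8 for differences whose interval holds 0 (5 on start sites, 2 on the plus strand, 1 on strand against the gene). Most of those came from setting the members beside the ND6 regions that neither ND5.1 nor ND5.3 holds, which include the classes DL and DR. There the members were wider (4 bp), higher in signal (log2 difference 0.42) and 0.461 points more often in ND4, which are the 3 just named. Class IND was then 54.8 points more frequent among members, the share near protein-coding start sites was 5.99 points lower (a difference of -5.99), and the share in lncRNA genes alone differed by 2.41 points. Against class IND regions in neither list the start-site difference was -5.11 points. Below the median ND6 signal, the width difference was 0 bp and the ND4 difference -1.96 points. With starts taken as 0-based, 59.4% of start positions were C. The added measures (start sites, strand against the gene, region ends, protein-coding and lncRNA hosts) were chosen after seeing the data. The cause of these changes was not tested. Sequence could be read for 15 members only, all at promoters, which limits every statement on sequence.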
